A study of Mus musculus with 17 samples.

Results

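Fast excitatory transmission in the cortex is carried largely by AMPA-type glutamate receptors, and the genes that encode their subunits and their best-known auxiliary proteins were followed across 6 groups of Hnrnph2-mutant and control mice. The set held Gria1, Gria2, Gria3 and Gria4, which encode the pore-forming subunits GluA1 to GluA4, and Cacng2, Cacng3, Cacng4, Cacng5, Cacng7 and Cacng8, which encode the transmembrane AMPA receptor regulatory proteins (TARPs). Members were picked by gene symbol, and the set was chosen with earlier results of these data known. All 10 were found among 55453 symbols, and all 10 were among the 16265 genes with a mean of at least 1 TPM that were tested.

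AMPA receptors are tetramers of GluA subunits. GluA2 makes the channel nearly impermeable to calcium once its transcript has been edited by the enzyme that Adarb1 encodes, so the proportion of Gria2 among the subunits is a common measure of receptor type. TARPs sit beside the pore in the membrane, carry receptors to the surface, hold them at the synapse through PSD-95 and slow their closing. Type I TARPs (Cacng2, also called stargazin, Cacng3, Cacng4 and Cacng8) do this most strongly, whereas the type II TARPs Cacng5 and Cacng7 modulate the channel with weaker effects on trafficking.

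RNA came from the bulk cortex of 17 male C57BL/6J mice. The product of the X-linked gene Hnrnph2 binds RNA and belongs to the hnRNP H/F proteins. Mutant males were hemizygous for a knockout allele (KO, 3 mice, 8 weeks), for the R206W substitution (3 mice, 8 weeks) or for the P209L substitution (3 mice, 3 weeks). The study describes the R206W and P209L alleles as knockins of the human mutations, and its KO line as an indel with a frameshift and a premature stop codon. Wild-type littermates of the same age served as controls, with 3 mice in the KO line, 3 in the R206W line and 2 analysed here in the P209L line. Every 3-week mouse came from the P209L line, so age and line cannot be told apart.

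Values were TPM, transcript abundances divided by transcript length and scaled to a total of 1000000 per library, so that levels can be compared between genes. Depth is unknown, and precision was judged from the spread between mice. As a check of the labels, Hnrnph2 lay between 21.3 and 24.4 TPM in KO mice and between 80.5 and 145 TPM in their controls, a log2(TPM + 1) difference of -2.30 (limma adjusted p = 8.64e-06). KO control 1 stood apart from the other 16 libraries: 20.1% of its TPM fell on mitochondrially encoded genes, where the other libraries had 10.7% to 15.4%, and 36.5% on its top 10 genes, where the others had 19.4% to 29.3%. Several results that rest on it are given with and without it, and the others include it. Summed TPM of 5 pan-neuronal markers ranged from 2948 to 5080 in 8-week controls and from 2442 to 2716 in 3-week controls. Summed TPM of 6 cerebellar markers ranged from 11.2 to 23.8 over all groups, and 3 of the 6 (Gabra6, Pcp2 and En2) averaged under 1 TPM in every group. That of 6 striatal markers ranged from 89.5 to 154, and 5 of the 6 averaged at least 1 TPM over all mice.

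Gria2 was the most abundant member and Cacng5 the least, and the order within each family hardly varied between mice. Over all 17 mice the mean level was 255 TPM for Gria2 (range 163 to 316), 120.2 TPM for Gria3 (94.1 to 144), 81.6 TPM for Gria1 (55.9 to 102) and 56.9 TPM for Gria4 (42.7 to 68.8). This order held in 17 of 17 mice at every step. The closest neighbours were Gria1 and Gria4, whose TPM ratio ranged from 1.10 to 2.04, and Gria3 and Gria1, whose ratio ranged from 1.14 to 1.73. Among the TARPs, the mean was 140.4 TPM for Cacng7 (109 to 170.4), 82.7 TPM for Cacng3 (47.2 to 135), 34.2 TPM for Cacng8 (18.5 to 51.5), 32.2 TPM for Cacng2 (18.4 to 44.1), 12.7 TPM for Cacng4 (7.81 to 17.4) and 2.93 TPM for Cacng5 (1.97 to 4.05). Each of these steps held in 17 of 17 mice except that from Cacng8 to Cacng2, which held in 12 of 17, with ratios from 0.801 to 1.34, so the order of this pair is not fixed. The remaining genes of the family, Cacng1, a subunit of the skeletal muscle calcium channel, and its relative Cacng6, are not counted as TARPs. Cacng1 lay between 0 and 0.08 TPM and Cacng6 between 0.59 and 1.67 TPM in all 17 mice.

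**Figure D1:**
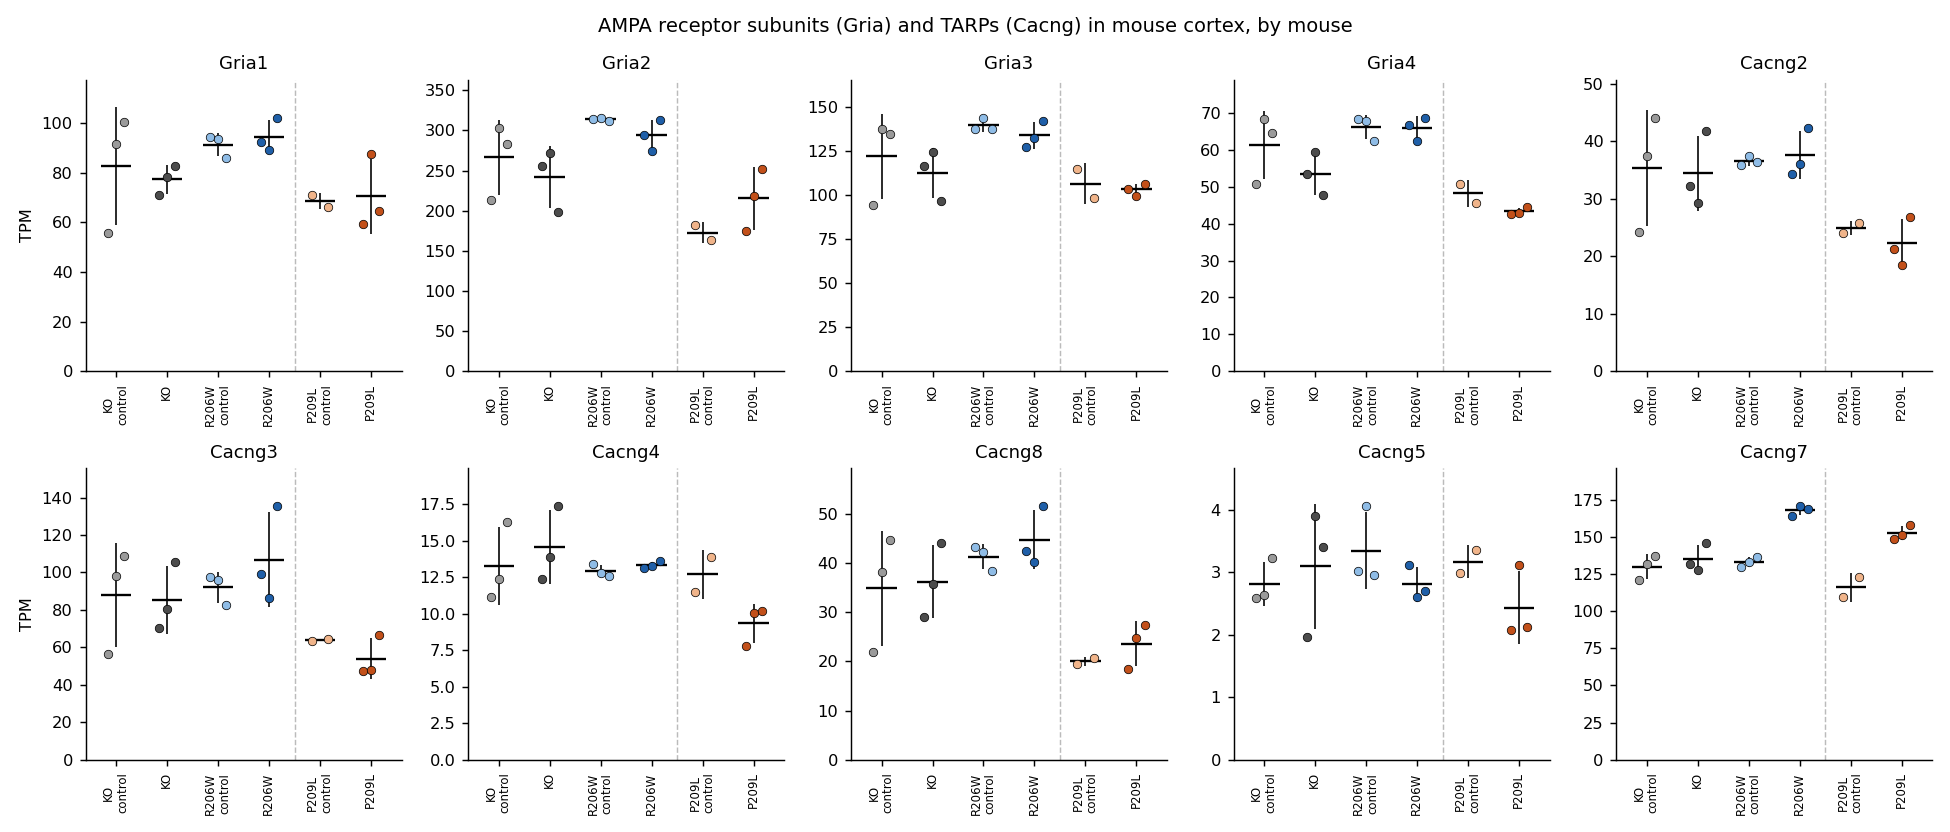
TPM (vertical axis, linear from 0) of the 4 AMPA receptor subunit genes and the 6 TARP genes in each of 17 mice, by group. Points are mice, horizontal bars are group means and vertical bars are 1 SD, with the 8-week groups left of the dashed line and the 3-week groups right of it. The R206W and P209L mice lie above all of their controls for Cacng7, and the 2 P209L controls lie below every 8-week control for Gria2 and Cacng8.

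Several of the TARP genes lie in clusters. In GENCODE M21 (GRCm38), Cacng7 (ENSMUSG00000069806.5, chr7:3332955-3368221, plus strand) is followed, after 22461 bases, by Cacng8 (ENSMUSG00000053395.15, chr7:3390683-3415648, plus strand) and, after a further 8546 bases, by Cacng6. On chromosome 11, Cacng1, Cacng4 (ENSMUSG00000020723.3, chr11:107732357-107794557, minus strand) and Cacng5 (ENSMUSG00000040373.12, chr11:107874605-107915055, minus strand) follow one another. The genes Cacng2 (ENSMUSG00000019146.2, chr15:77991748-78120028, minus strand) and Cacng3 (ENSMUSG00000066189.9, chr7:122670492-122769393, plus strand) stand elsewhere. The subunit genes are on different chromosomes: Gria1 (ENSMUSG00000020524.16, chr11:57011387-57330244, plus strand), Gria2 (ENSMUSG00000033981.14, chr3:80681450-80802835, minus strand), Gria3 (ENSMUSG00000001986.16, chrX:41400854-41678601, plus strand) and Gria4 (ENSMUSG00000025892.16, chr9:4417896-4796234, minus strand). Gria3 is thus X-linked, as Hnrnph2 is. The labels' processing notes name mm10, another name for GRCm38, but the annotation behind the table is not given in the sources used here.

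RefSeq promoter windows (GRCm38.p6, 250 bases before to 50 bases after a transcript start) were at hand for 7 of the 10 members and are shown for Cacng7, Gria2 and Gria4, the members on which the comparisons of genotypes and ages turn. Gria1, Gria3 and Cacng4 had no entry. The window listed for Cacng8 begins inside the GENCODE gene and is not shown. Capitals mark a GC box (GGGCGG) or a CCAAT box (CCAAT), searched on both strands (CCGCCC and ATTGG on the strand shown), and the start of Cacng7 in RefSeq lies before that in GENCODE.
Cacng7 promoter, chr7:3332575-3332874, plus strand: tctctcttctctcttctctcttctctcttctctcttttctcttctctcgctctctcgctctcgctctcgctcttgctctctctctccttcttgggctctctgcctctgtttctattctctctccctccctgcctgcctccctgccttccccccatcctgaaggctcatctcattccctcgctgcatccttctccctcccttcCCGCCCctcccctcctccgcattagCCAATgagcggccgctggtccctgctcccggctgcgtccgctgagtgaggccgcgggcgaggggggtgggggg
Gria2 promoter, chr3:80802786-80803085, minus strand: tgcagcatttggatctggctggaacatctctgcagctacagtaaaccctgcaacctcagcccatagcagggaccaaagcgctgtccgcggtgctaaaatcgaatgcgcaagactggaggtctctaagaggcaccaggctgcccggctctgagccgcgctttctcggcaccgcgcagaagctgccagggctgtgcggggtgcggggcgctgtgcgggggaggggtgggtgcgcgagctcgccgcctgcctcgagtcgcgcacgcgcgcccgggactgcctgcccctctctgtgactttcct
Gria4 promoter, chr9:4796185-4796484, minus strand: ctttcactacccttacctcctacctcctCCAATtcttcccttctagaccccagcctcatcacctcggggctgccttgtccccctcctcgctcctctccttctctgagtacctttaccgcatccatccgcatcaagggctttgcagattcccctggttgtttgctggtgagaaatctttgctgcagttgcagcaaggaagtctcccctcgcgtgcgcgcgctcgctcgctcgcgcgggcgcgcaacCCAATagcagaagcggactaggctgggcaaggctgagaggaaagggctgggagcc
The Cacng7 window held 1 GC box and 1 CCAAT box, the Gria4 window 2 CCAAT boxes, and the Gria2 window neither. Among 32851 RefSeq promoter windows of this length, 35.7% held the GC box and 37.4% the CCAAT box. The TATA box (TATAAA) was in none of the 3 windows and in 13.6% of all windows. GC content was 62.0% for Cacng7, 65.7% for Gria2 and 59.7% for Gria4.

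Proteins of the hnRNP H/F family bind runs of G in RNA, so runs of at least 3 G were counted in the longest coding transcript of each member. Cacng7 (2212 bases, 58.1% GC) held 20.8 such runs per kb, more than 93.9% of 13400 coding genes tested, whose median was 12.4. Cacng8 followed with 19.5 per kb and Cacng2 with 17.8 per kb. At the other end, the Gria2 transcript (10371 bases, 36.8% GC) held 7.14 runs per kb, more than 8.31% of the coding genes. Gria2 had a GC content above only 0.724% of them and a length above 97.7%. The GC content of Cacng7 was above 88.7% of them and that of Cacng8 above 99.5%. These are counts in annotated mature transcripts and say nothing of binding in these mice.

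KO cortex was compared with its controls to ask whether loss of Hnrnph2 altered the receptor genes. In KO mice the 4 Gria genes averaged between 87.3% (Gria4) and 93.5% (Gria1) of their controls, and the 6 TARP genes between 97.2% (Cacng3) and 110.0% (Cacng5). With limma, 0 of the 10 members passed an adjusted p under 0.05, against 0.00615% of all genes tested, and 0 had an unadjusted p under 0.05, against 4.08% of all genes. No member had groups that did not overlap, against 6.25% of all genes. The differences on the log2(TPM + 1) scale ran from -0.19 for Gria4 to 0.12 for Cacng4, with a median of -0.01 over the 10 members and 0.06 over all genes. The summed cerebellar markers were higher in KO mice (16.8 to 23.8 TPM) than in their controls (11.2 to 13.4 TPM) without overlap. Of these markers Gabra6, Pcp2 and En2 averaged under 1 TPM and were not tested. The 3 that were tested, Cbln1, Zic1 and Zic2, had log2 differences of 0.40 to 0.68. All 3 had an unadjusted p under 0.05 by limma, beside 4.08% of all genes, and none passed the adjusted threshold. Their part in the KO values was not tested.

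The subunit genes lay on the low side in KO mice, but their controls were spread widely. The Gria4 levels were 53.5, 59.5 and 47.7 TPM in KO mice and 50.8, 68.5 and 64.7 TPM in the controls. The lowest control was KO control 1, and the other two controls lay above all 3 KO mice. The log2 difference was -0.19 (SE 0.115, 95% CI -0.43 to 0.06, adjusted p = 0.999 by limma), and -0.31 without KO control 1. In the same way Gria2 differed by -0.14 and by -0.29 without that mouse, and Gria3 by -0.11 and -0.28. Without it the lowest adjusted p of the 10 members was 0.406, that of Gria4. With libraries weighted by quality, which gave KO control 1 a weight of 0.0819, 4 of 10 members passed beside 13.1% of all genes, all 4 lower in KO: Gria1 (-0.33, adjusted p = 0.0347), Gria3 (-0.22, adjusted p = 0.0419), Gria4 (-0.31, adjusted p = 0.0130) and Cacng3 (-0.41, adjusted p = 0.0479). That weighting changed all libraries at once, with KO control 2 at 4.01 and KO 3 at 0.236, and leaving out KO control 1 alone gave no call.

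The type I TARPs Cacng3 and Cacng8 overlapped fully between KO mice and controls. Cacng3 was at 70.2, 80.5 and 105 TPM in KO mice and at 56.4, 98.3 and 109 TPM in their controls, and Cacng8 was at 29.0, 35.6 and 43.9 TPM in KO mice and at 21.9, 38.1 and 44.6 TPM in controls. In both genes the KO values fell within the range of the controls. The log2 difference of Cacng8 was 0.09 and turned to -0.20 without KO control 1, its lowest control. The widest 95% interval of the 10 members was that of Cacng3, -0.49 to 0.48, and the narrowest was that of Cacng7, -0.13 to 0.24.

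Only Cacng7, a type II TARP, separated R206W mice from their controls, and it did not pass over all genes. It was at 126% of its controls in R206W mice, while the remaining 9 members lay between 83.8% (Cacng5) and 116% (Cacng3) of their controls. Cacng7 was at 164, 170.4 and 169 TPM in R206W mice and at 129.9, 133 and 136 TPM in their controls. All 3 mutants lay above all 3 controls, and the spread within each group was 3.29 and 3.22 TPM (SD, n = 3). The log2 difference was 0.33 (SE 0.0883, 95% CI 0.14 to 0.52), with an unadjusted p = 0.00182 and an adjusted p = 1.0 by limma, and so did not pass over all genes. The exact two-sided permutation p = 0.1 is the smallest that 3 mice against 3 allow.

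Over all members in R206W, 0 of 10 passed the adjusted threshold, against 0.0369% of all genes tested. Cacng7 was the only member with an unadjusted p under 0.05 (2.19% of all genes) and the only member without overlap of the groups (16.2% of all genes, 8.09% higher in the mutant). With libraries weighted by quality Cacng7 passed (0.33, adjusted p = 0.00189), beside 0.916% of all genes. The 4 Gria genes ran from -0.10 (Gria2) to 0.05 (Gria1) on the log2 scale. Gria2 was at 294, 275 and 313 TPM in R206W mice and at 314, 316 and 312 TPM in controls, so the highest mutant lay among the controls. Cacng3 showed the widest spread, with 99.1, 86.2 and 135 TPM in R206W mice against 97.7, 96.2 and 82.5 TPM in controls, and 1 mutant mouse set its mean difference of 0.19 (95% CI -0.30 to 0.68). Without R206W 3 that difference was 0.01. The summed TPM of the 6 TARPs relative to that of the 4 subunits was 0.633 ± 0.0257 in R206W mice and 0.523 ± 0.00479 in controls (SD, n = 3), and the groups did not overlap. The ratio was 0.648 ± 0.167 against 0.571 ± 0.0363 in the KO line (SD, n = 3), with overlap, and 0.613 ± 0.0385 (n = 3) against 0.612 ± 0.0849 (SD, n = 2) in the P209L line. It was not tested.

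**Figure D2:**
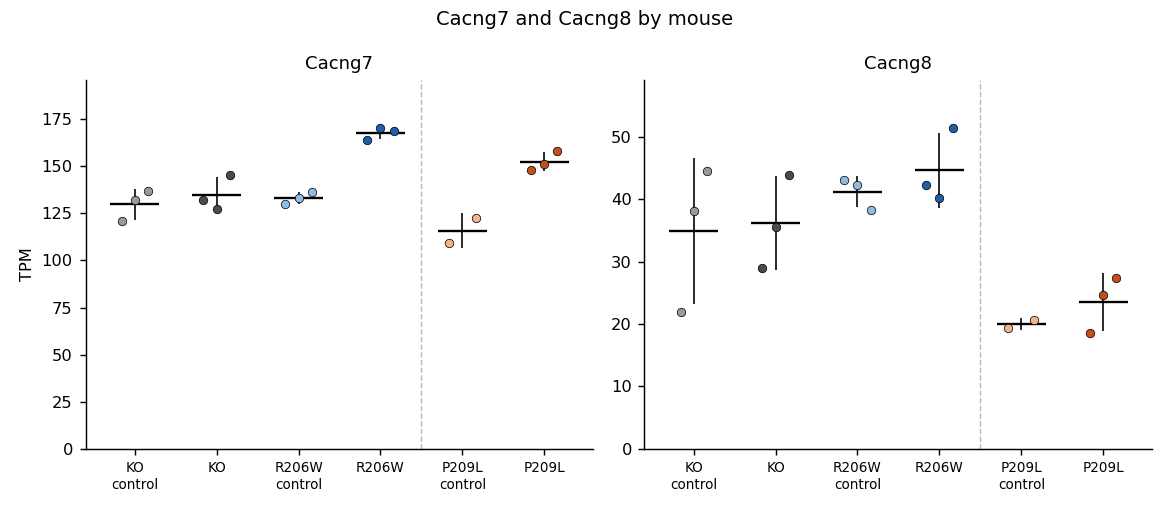
TPM (vertical axis, linear from 0) of Cacng7 and Cacng8, which follow one another on chromosome 7, in each of 17 mice by group. Points are mice, horizontal bars are group means and vertical bars are 1 SD. Cacng7 is higher in the R206W and P209L mice than in their own controls without overlap, whereas the mutant and control values of Cacng8 overlap in every line.

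In P209L cortex at 3 weeks Cacng7 again lay above the controls and Cacng4, a type I TARP, below them, and neither passed over all genes. Cacng7 was at 148, 151 and 158 TPM in P209L mice and at 109 and 123 TPM in their controls, so that the groups did not overlap and the mutant mean was 132% of the control mean. The log2 difference was 0.40 (SE 0.0988, 95% CI 0.19 to 0.61), with an unadjusted p = 0.00109 and an adjusted p = 0.201 by limma. The exact permutation p = 0.1 is the smallest possible for 3 mice against 2. Over the alternatives the adjusted p ran from 0.0214, with libraries weighted by quality, to 0.779, without P209L control 2, and it was 0.0440 without KO control 1, which enters the shared spread.

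Cacng4 was at 7.81, 10.1 and 10.2 TPM in P209L mice and at 11.5 and 13.9 TPM in controls. Every mutant lay below both controls, at 73.6% of their mean. The log2 difference was -0.41 (SE 0.163, 95% CI -0.75 to -0.06, unadjusted p = 0.0238, adjusted p = 0.565 by limma). It was -0.28 without P209L control 2 and -0.53 without P209L control 1. Markers of the oligodendrocyte lineage moved in the same direction: the summed TPM of 6 precursor markers was 79.2 to 102 in P209L mice and 112 to 148 in their controls, and that of 6 oligodendrocyte markers was 2401 to 3460.1 against 3964 to 5928. All 6 genes of both lists were detected. Their part in the Cacng4 difference was not tested, and in bulk tissue fewer cells of a type cannot be told apart from less RNA per cell.

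Over all members in P209L, 0 of 10 passed the adjusted threshold by limma, against 0.0984% of all genes. Cacng4 and Cacng7 had an unadjusted p under 0.05, 2 of 10 members beside 7.46% of all genes. Groups did not overlap for Cacng4, Cacng7 and Gria4, beside 24.9% of all genes, a high background, since 3 mice stood against 2. Gria4 was at 42.7, 43.0 and 44.5 TPM in P209L mice and at 50.9 and 45.5 TPM in controls, with a log2 difference of -0.15 (95% CI -0.42 to 0.13). Gria2 was at 175, 219 and 252 TPM in P209L mice and at 182 and 163 TPM in controls, with a log2 difference of 0.31 (95% CI -0.06 to 0.67, adjusted p = 0.766 by limma). Only P209L 1 lay among the controls. Of the others, Cacng5 (-0.29), Cacng3 (-0.26), Cacng2 (-0.18) and Gria3 (-0.04) lay below 0 and Cacng8 (0.21) and Gria1 (0.02) above it. The median over the 10 members was -0.09, beside 0.02 over all genes.

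The remaining members overlapped between mutants and controls in every line. Gria1, whose subunit is delivered to synapses with activity, was at 92.3, 89.4 and 102 TPM in R206W mice against 94.4, 93.9 and 86.0 TPM in controls, and at 59.5, 87.6 and 64.5 TPM in P209L mice against 70.9 and 66.3 TPM. In KO mice it was at 71.3, 78.2 and 82.7 TPM against 55.9, 91.9 and 101 TPM. All KO values thus lay between the lowest and the other controls.

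The X-linked Gria3 was at 127, 132 and 142 TPM in R206W mice against 137, 144 and 137 TPM in controls, and at 103, 99.6 and 106 TPM in P209L mice against 114 and 98.1 TPM. Stargazin (Cacng2) was at 34.4, 36.1 and 42.3 TPM in R206W mice against 35.8, 37.5 and 36.3 TPM, and at 21.3, 18.4 and 26.9 TPM in P209L mice against 24.1 and 25.8 TPM. Cacng5, the other type II TARP, had overlapping groups. It was at 3.12, 2.60 and 2.69 TPM in R206W mice against 3.02, 4.05 and 2.96 TPM, and at 2.07, 3.11 and 2.12 TPM in P209L mice against 2.98 and 3.35 TPM.

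**Figure D3:**
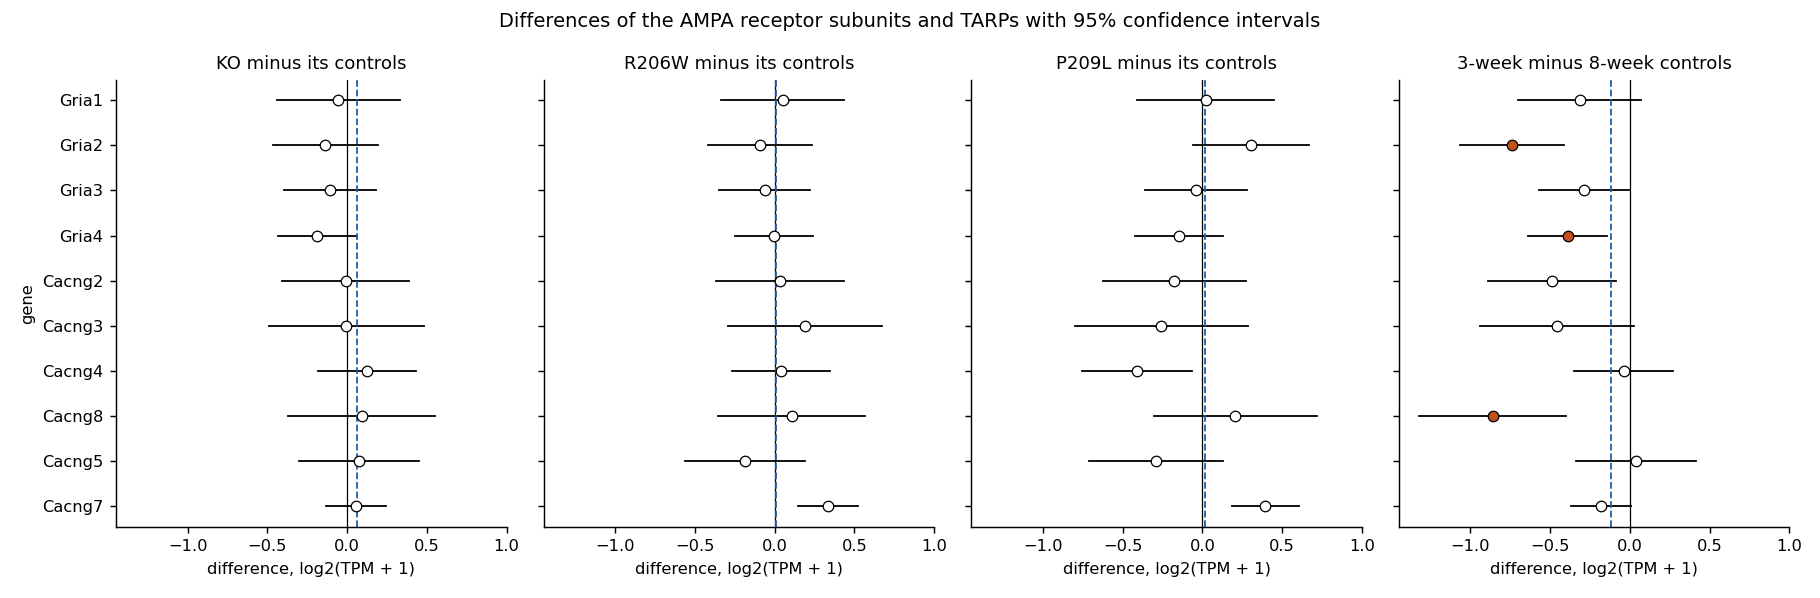
Differences in log2(TPM + 1) (horizontal axis) of the 10 members (rows) for KO, R206W and P209L mice against the controls of their own line and for 3-week against 8-week controls. Points are limma estimates, bars are 95% confidence intervals, filled points passed an adjusted p under 0.05 over all genes and the dashed line is the median of all genes tested. Filled points appear only in the comparison of ages, for Gria2, Gria4 and Cacng8, and the intervals of Cacng7 in R206W and P209L lie above 0.

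Cacng7 was then compared between the lines, since its groups were separate in the R206W and P209L lines but overlapped in the KO line. In KO mice it was at 132, 127 and 146 TPM against 121, 132 and 137 TPM in controls, a log2 difference of 0.05 (95% CI -0.13 to 0.24), and the groups overlapped. The KO effect minus the R206W effect was -0.28 (95% CI -0.54 to -0.01, unadjusted p = 0.0417, adjusted p = 1.0), and the P209L effect minus the KO effect was 0.34 (95% CI 0.06 to 0.62, unadjusted p = 0.0207, adjusted p = 0.534). The P209L and R206W effects differed by 0.06 (95% CI -0.22 to 0.35). No member passed in these 3 comparisons, beside 0.0307%, 0.0492% and 0% of all genes, so the Cacng7 effect is not shown to differ between KO and knockin mice. Both differences that involve KO passed with libraries weighted by quality (adjusted p = 0.0213 and 0.0340), beside 1.96% and 2.11% of all genes.

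Averaging the R206W and P209L effects, a comparison chosen with the Cacng7 values already known, gave 0.36 for Cacng7 (SE 0.0663, 95% CI 0.22 to 0.50) with an adjusted p = 0.0346. It was the only member among 29 genes that passed, 0.178% of those tested. All 6 knockin mice lay above all of their own controls, a pattern that 1.56% of the genes tested showed with the mutants higher in both lines. The adjusted p was 0.194 when the replicate number entered the fit as a block. Leaving out 1 mouse at a time gave 0.00445 to 0.152, and 4 of the 17 values were under 0.05, those without KO control 1, KO control 3, KO 2 or KO 3. The KO effect minus that mean was -0.31 (95% CI -0.54 to -0.07, unadjusted p = 0.0131, adjusted p = 0.806 by limma), and no member passed, beside 0.0492% of all genes.

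Cacng8, which follows Cacng7 on chromosome 7, had overlapping groups in both knockin lines. In R206W mice it was at 42.3, 40.2 and 51.5 TPM against 43.1, 42.3 and 38.4 TPM in controls, and in P209L mice it was at 18.5, 24.7 and 27.5 TPM against 19.4 and 20.6 TPM. Its log2 differences were 0.11 (95% CI -0.35 to 0.57) and 0.21 (95% CI -0.31 to 0.72). Both intervals include the Cacng7 estimates, and the difference between the genes within mice was not tested.

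The makeup of the TARP pool reflected these values. Cacng7 made up 58.0 ± 3.30% of summed TARP TPM in P209L mice (n = 3) and 48.1 ± 1.13% in their controls (n = 2), with 60.5%, 59.2% and 54.2% against 47.3% and 48.9% in single mice. The 4 type I TARPs together made up 41.1 ± 3.45% against 50.5 ± 1.16% (SD). Neither pair of groups overlapped. In R206W mice Cacng7 made up 45.2 ± 4.12% against 41.7 ± 2.09% (SD, n = 3), with overlap. Among the 3 R206W mice, R206W 3 had the highest Cacng3 value and the lowest Cacng7 share, 40.8%. In KO mice the share was 44.0 ± 3.40% against 43.6 ± 6.49% (SD, n = 3). The highest of these control shares, 51.0%, was that of KO control 1. Such shares sum to 100% in each mouse, so a rise of one member lowers the others.

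**Figure D4:**
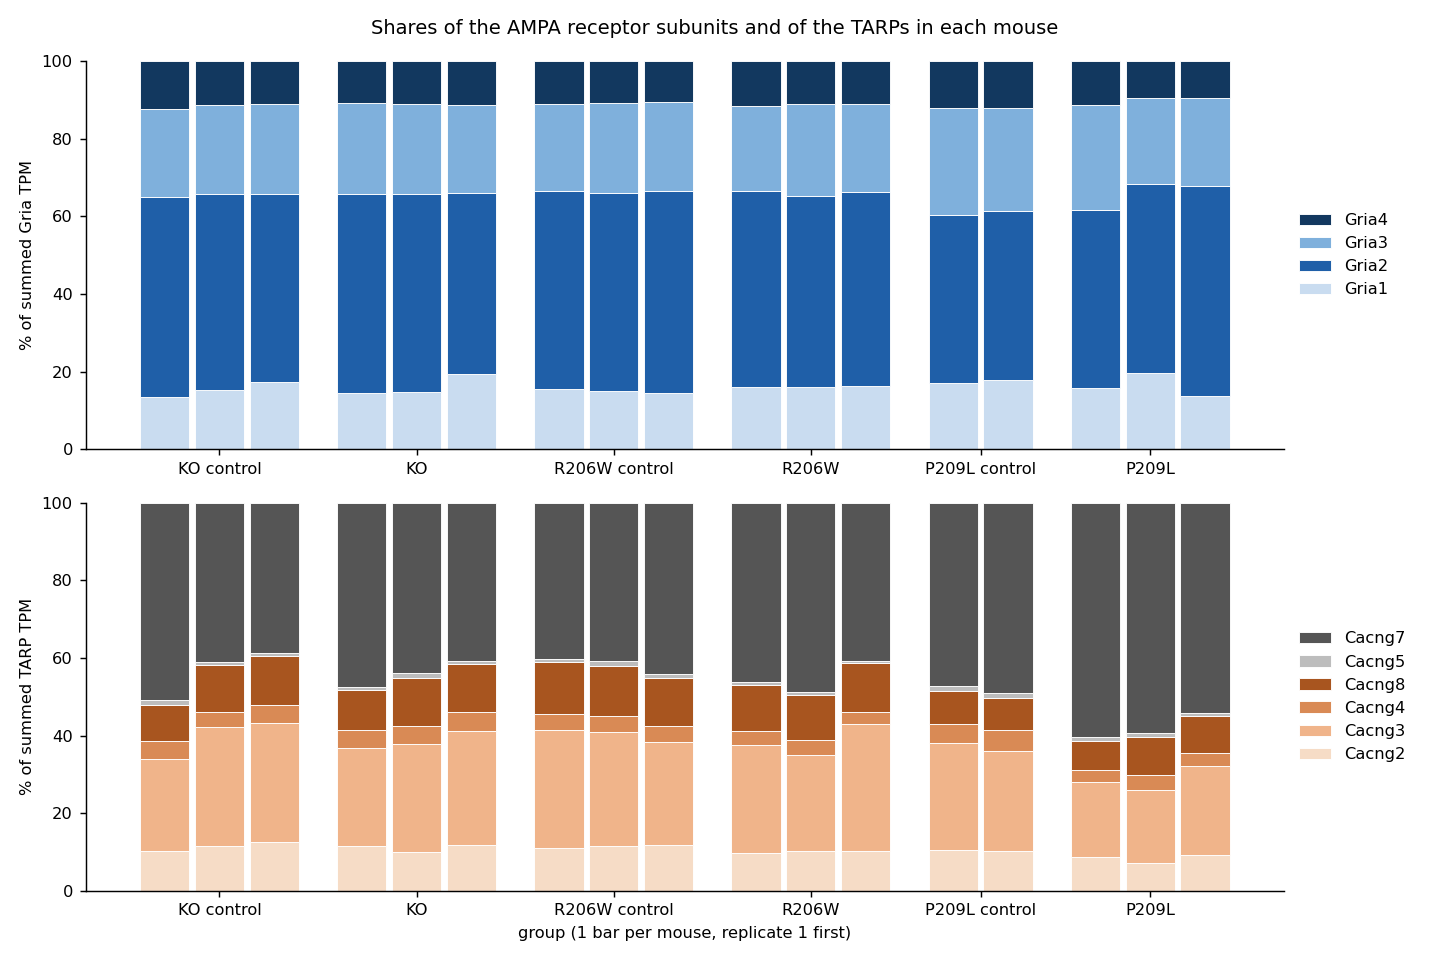
Shares (vertical axis, %) of the 4 subunit genes in summed Gria TPM (upper panel) and of the 6 TARP genes in summed TARP TPM (lower panel), with 1 bar per mouse and groups along the horizontal axis. Gria2 is 43.5% and 43.7% of the subunit total in the 2 P209L controls and at least 48.6% in the 8-week controls, and Cacng7 is 54.2% to 60.5% of the TARP total in P209L mice.

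The P209L controls were set against the 6 controls of the KO and R206W lines to compare the cortex at 3 and 8 weeks, and all of these controls also serve in the comparisons of genotypes above. At 3 weeks Gria2, Gria4 and Cacng8 were lower, and no member was higher. By limma 3 of 10 members passed an adjusted p under 0.05, beside 36.1% of all genes (24.8% lower, 11.3% higher), so the share of members is near the background. The groups did not overlap for Gria2 and Cacng8, beside 38.2% of all genes (21.5% lower). Differences of 9 members lay below 0, and the median was -0.35 on the log2 scale beside -0.12 over all genes. After rescaling by median-of-ratios size factors, which brought the median of all genes to 0.00, Gria2 (-0.60), Gria4 (-0.25) and Cacng8 (-0.72) passed as well, and 22.6% of all genes were lower and 21.5% higher.

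Gria2 showed the largest difference among the subunits. It was at 182 and 163 TPM in the 3-week controls and ranged from 214 to 316 TPM, with a median of 307 TPM, in the 8-week controls. The ages did not overlap, and the lowest 8-week control was KO control 1. The mean at 3 weeks was 172 ± 13.3 TPM (n = 2) against 290.2 ± 39.3 TPM (SD, n = 6), or 59.4%. The log2 difference was -0.74 (SE 0.154, adjusted p = 0.00204), with an exact permutation p = 0.0357, the smallest that 2 mice against 6 allow. It was -0.81 without KO control 1. When a trend with transcript length and GC content was removed from each library, it shrank to -0.08 (adjusted p = 0.544). Gria2 lies at the far end of both scales, as given above, and the part of this trend in the difference was not otherwise tested.

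Gria4 was at 50.9 and 45.5 TPM at 3 weeks and ranged from 50.8 to 68.5 TPM at 8 weeks, with a median of 66.3 TPM. The ages touched only at KO control 1. The log2 difference was -0.39 (SE 0.115, adjusted p = 0.0161 by limma). It became 0.02 once the length and GC trend was taken out, and its adjusted p was 0.175 without P209L control 2. Gria1 and Gria3 were at 78.8% and 81.3% of the 8-week mean and did not pass (adjusted p = 0.185 and 0.109).

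Cacng8, a type I TARP best known from the hippocampus, was at 19.4 and 20.6 TPM at 3 weeks and ranged from 21.9 to 44.6 TPM, with a median of 40.3 TPM, at 8 weeks. Without KO control 1 the lowest 8-week control was at 38.1 TPM. The mean at 3 weeks was 52.5% of that at 8 weeks, with a log2 difference of -0.86 (SE 0.216, adjusted p = 0.00657 by limma), which was -1.01 without KO control 1 and -0.93 once that trend was taken out. Its adjusted p was 0.0692 without P209L control 1. Cacng2 and Cacng3 were at 69.4% and 71.0% of the 8-week mean (adjusted p = 0.0538 and 0.129). Cacng4, Cacng5 and Cacng7 were at 96.9%, 103% and 88.1% and did not pass, with log2 intervals of -0.35 to 0.27, -0.34 to 0.42 and -0.37 to 0.01.

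More members passed at 3 weeks under some alternatives, as did more of all genes. Without KO control 1, 8 of 10 members passed, all lower, beside 50.3% of all genes (37.4% lower), with Gria1, Gria3, Cacng2, Cacng3 and Cacng7 added to the 3 above. The same number passed with libraries weighted by quality, beside 58.2% of all genes. When the P209L mice and the 8-week mutants were included with the controls, 8 passed as well, with Cacng4 in place of Cacng7, beside 57.7% of all genes. Markers of several cell types moved with the age groups. The summed TPM of 5 pan-neuronal markers was 2442 to 2716 at 3 weeks, 2948 to 5080 in the KO controls and 4681 to 4894 in the R206W controls. That of 6 excitatory markers was 1442 to 1551, 1565 to 2569 and 2331 to 2365. In each of these lists 4 genes passed as lower, beside 24.8% of all genes. Of 6 astrocyte and 6 microglial markers 3 each passed as lower. Oligodendrocyte markers moved the other way: 4 of 6 passed as higher (share of all genes given above), with a median difference of 0.67. Their summed TPM was 3964 to 5928 in the 3-week controls, 2570 to 3285 in the KO controls and 3237 to 3491 in the R206W controls. In the P209L mice, also at 3 weeks, it was 2401 to 3460, so only the 3-week controls were higher. The pan-neuronal sum of the P209L mice was 2293 to 2687. Sums of inhibitory, endothelial and precursor markers overlapped between the ages. In the 3-week, KO and R206W controls they were 711 to 748, 539 to 887 and 776 to 828 for inhibitory markers. Endothelial sums were 191 to 216, 180 to 226 and 208 to 219, and precursor sums 112 to 148, 76.45 to 133 and 118 to 128. No marker of these lists was at 0 throughout, and their part in the Gria and Cacng values was not tested.

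In the 8-week controls, Gria2 made up 50.8 ± 1.22% of summed Gria TPM, Gria3 22.9 ± 0.283%, Gria1 15.1 ± 1.25% and Gria4 11.2 ± 0.606% (SD, n = 6). In the 3-week controls the shares were 43.6 ± 0.159%, 26.9 ± 0.769%, 17.4 ± 0.581% and 12.2 ± 0.0279% (SD, n = 2). The Gria2 share did not overlap between the ages. In P209L mice of the same age it was 46.0%, 48.7% and 54.0%, higher than in both of their controls. Summed Gria TPM was 395 ± 31.9 at 3 weeks against 572 ± 78.2 at 8 weeks. That of the TARPs was 241 ± 14.1 against 312 ± 39.4 (SD, n = 2 and 6). Without KO control 1 the 8-week sums were 603 ± 14.8 and 327 ± 16.6 (SD, n = 5). Between the 2 groups of 8-week controls, 0 of 10 members passed by limma (0 of all genes, and 3.12% of all genes at an unadjusted p under 0.05, among them 0 members). Gria2 and Gria3 were higher in the R206W controls than in the KO controls without overlap, beside 9.07% of all genes.

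The proteins that assemble, deliver and anchor AMPA receptors were described by a list of 30 partner genes, all of which were tested. In KO, R206W and P209L cortex 0 of the 30 passed by limma, beside 0.00615%, 0.0369% and 0.0984% of all genes. At an unadjusted p under 0.05 the counts were 0, 0 and 1, beside 4.08%, 2.19% and 7.46% of all genes. The median differences of the 30 were 0.01, 0.06 and -0.05 on the log2 scale, beside 0.06, 0.01 and 0.02 over all genes. The single gene was Gsg1l, which encodes an auxiliary subunit distinct from the TARPs and is named here after its values were seen. It averaged 26.6 ± 0.639 TPM in P209L mice (n = 3) and 42.0 ± 1.87 TPM in their controls (SD, n = 2), a log2 difference of -0.64 (SE 0.141, adjusted p = 0.124). In KO and R206W mice it averaged 44.3 and 46.7 TPM beside 43.5 and 47.0 TPM in controls. Among the 30, 7 passed as lower in KO with libraries weighted by quality, where more of all genes passed too, as given above. In P209L 1 passed as lower with that weighting, with median-of-ratios scaling, with quantile normalization and with mitochondrial genes left out. The count was also 1 with the length and GC trend removed and without KO control 1. The share of all genes under these P209L settings is not given, so these counts alone are not results about the partners. In R206W no alternative gave a call.

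At 3 weeks 13 of the 30 partner genes were lower than at 8 weeks and 0 were higher, with a median of -0.28, beside 24.8% of all genes lower. They were 2 of 8 auxiliary proteins, 1 of 4 assembly factors, 3 of 6 extracellular organizers, 3 of 7 cytoplasmic partners, 3 of 4 MAGUK scaffolds and Adarb1. Under median-of-ratios scaling 13 were lower and 5 higher. After removal of the trend with length and GC content 6 were lower and 4 higher, beside 20.6% and 21.3% of all genes. The lower genes numbered 7 without P209L control 1 and 5 without P209L control 2, beside 13.2% and 11.7% of all genes. The 5 with the smallest p were Frrs1l, Epb41l1, Dlg2, Nptx1 and Olfm3. Frrs1l, which encodes a factor for receptor assembly in the endoplasmic reticulum, was at 59.7 ± 6.43 TPM at 3 weeks (n = 2) against 147.7 ± 19.4 TPM at 8 weeks (SD, n = 6), a log2 difference of -1.28 (adjusted p = 4.50e-05 by limma). Nptx1, a secreted pentraxin that clusters receptors at synapses, was at 49.1 ± 0.615 against 121 ± 29.2 TPM (-1.24, adjusted p = 0.000887).

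The cytoskeletal linker gene Epb41l1 was at 124 ± 8.66 TPM at 3 weeks against 215 ± 23.7 TPM at 8 weeks (-0.78, adjusted p = 0.000383). Dlg2, which encodes the scaffold PSD-93, was at 105 and 109.9 TPM at 3 weeks and between 144 and 167 TPM at 8 weeks (-0.58, adjusted p = 0.000485). Olfm3, an olfactomedin found with AMPA receptors, was at 14.3 ± 1.75 against 26.2 ± 2.38 TPM (-0.83, adjusted p = 0.00510). Adarb1, whose product edits Gria2 transcripts and which is named here after its values were seen, differed by -0.64 (adjusted p = 0.00563).

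**Figure D5:**
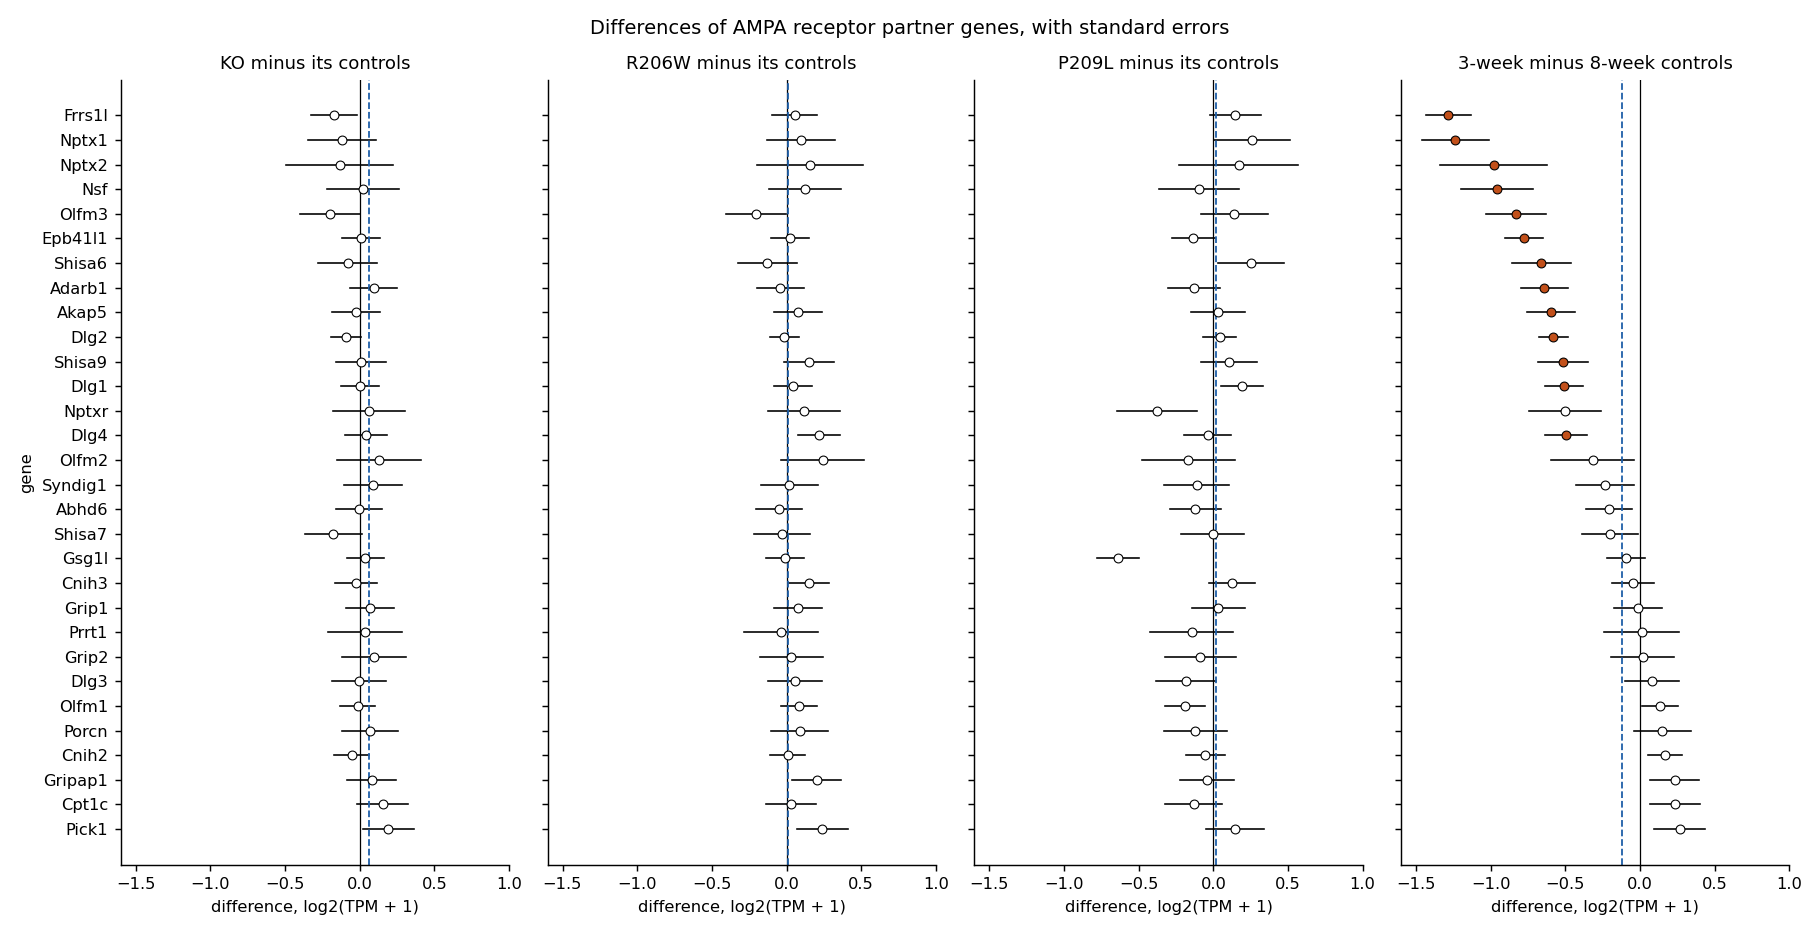
Differences in log2(TPM + 1) (horizontal axis) of the 30 partner genes (rows, ordered by the comparison of ages) in KO, R206W and P209L mice against their own controls and in 3-week against 8-week controls. Points are limma estimates, bars are 1 SE, filled points passed an adjusted p under 0.05 over all genes and the dashed line is the median of all genes tested. The 13 filled points all lie below 0 in the comparison of ages, and Gsg1l stands apart in P209L at -0.64 without passing in this fit.

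Other ionotropic glutamate receptors were counted in the same way. Of 7 NMDA receptor genes 6 were tested and of 5 kainate receptor genes 5 were. In KO, R206W and P209L cortex 0 of these 11 passed by limma, beside 0.00615%, 0.0369% and 0.0984% of all genes. At an unadjusted p under 0.05 the counts were 0, 0 and 1, beside 4.08%, 2.19% and 7.46% of all genes. The 1 was the kainate receptor gene Grik2 in P209L at 0.27. At 3 weeks 3 of the 11 were lower than at 8 weeks, near the 24.8% of all genes that were. They included 2 NMDA receptor genes: Grin2b (23.4 ± 1.48 against 51.6 ± 10.7 TPM, -1.08, adjusted p = 0.00143) and Grin2a (23.6 ± 2.54 against 37.6 ± 6.02 TPM, -0.63, adjusted p = 0.00536). The kainate receptor gene Grik3 was also lower (10.9 ± 0.636 against 21.7 ± 5.22 TPM, -0.88, adjusted p = 0.00884). The medians were -0.19 over the NMDA and -0.07 over the kainate receptor genes, beside -0.12 over all genes.

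Members varied together within groups, and less so without KO control 1. Over the 17 mice, deviations from the group means correlated between pairs of members with r from -0.09 to 0.93 (45 pairs, median 0.51), and without KO control 1 with r from -0.50 to 0.90 (median 0.26). The points share their libraries, and a change in the composition of a library can move many genes at once. Its part in these correlations was not tested. By Pearson r of log2(TPM + 1) over the same 17 mice, which also span both ages, the genes outside the lists most like the summed Gria TPM were Agfg1 (r = 0.978), Fam49a (0.977), Mef2a (0.977), Pigg (0.974) and Alg10b (0.973). Those most like the summed TARP TPM were Nmnat2 (r = 0.987), Src (0.982), U2af2 (0.978), Pom121 (0.977) and Adar (0.976). For Cacng7 alone, looked up after its values were seen, they were Ppp1r9b (r = 0.958), Dzip1 (0.942), Ilrun (0.921), Elavl3 (0.918) and Wdr13 (0.914).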

How the data were processed

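Bulk cortex RNA (stranded total RNA libraries) of 17 mice was measured. The file that the authors deposited gives, for each gene symbol and mouse, a TPM value. The submitters' processing notes name Trim Galore, STAR 2.7.1a, GATK 4.0.4.0, RSEM and mm10 without giving their roles, and the annotation is not given in the sources used here. Being shares of a library, TPM values of all genes move when some abundant transcripts change, and depth, counting error and detection limits are unknown.

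Of 55573 rows, 120 repeated a symbol and were summed, which left 55453 symbols. Of these, 98.3% were found by symbol in GENCODE M21, from which coordinates were taken. Genes with a mean of at least 1 TPM (16265) were analysed as log2(TPM + 1) in limma 3.58.1 (R 4.3.3), with a mean for each of 6 groups, a shared spread, moderated two-sided tests (eBayes with trend=TRUE) and Benjamini-Hochberg adjustment over all genes tested (threshold 0.05). Fold changes on this scale understate changes of low genes. Exact permutation tests of TPM used scipy 1.17.1 under Python 3.11.15. The script was tested on simulated data.

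The 10 members are all named. Of the partner list, up to 5 genes past the threshold with the smallest p per comparison are named, of the NMDA and kainate receptor genes up to 3, and of like genes the 5 with the highest r per pattern. The members and lists were chosen with earlier results of these data known. The labels do not say that mice came from separate litters, so p-values measure the spread between these mice. Alternatives were pseudocounts of 0.5 and 0.1, no filter, a filter at a mean of 5 TPM, quantile normalization, median-of-ratios size factors, mitochondrial genes left out, each comparison fitted alone, robust eBayes, arrayWeights, a replicate block, leaving out each mouse, and, for age, all 6 groups. The removal of a length and GC trend, the scaling combined with leaving out KO control 1, and the comparisons with the averaged knockin effect were added after the data were seen.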

Additional observations from a re-analysis of the deposited data

Results flagged for a closer look

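The 6 8-week controls were examined for a sample far from the rest in 20 sets of values, 10 TPM levels and 10 shares. In 6 of the 20 sets a sample was flagged by the Dixon test, each time KO control 1 on the low side. KO control 1 was also the lowest 8-week control in all 10 TPM levels, flagged or not. Chance flags about 1 in 20 such sets, and the 6 share 1 library, so they are not separate observations. Its levels were 55.87 TPM for Gria1, 213.78 TPM for Gria2, 94.05 TPM for Gria3, 50.83 TPM for Gria4 and 21.92 TPM for Cacng8. The gap to the nearest other control was 0.674, 0.684, 0.814, 0.656 and 0.713 of the range of the group, above the 95% critical value of the Dixon test. Cacng8 also made up 9.24% of the summed TARP TPM in this mouse, with a gap of 0.641 of the range. The same library had the highest mitochondrial share, and the part of its composition in these values was not tested.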

How the results depend on the processing

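Depth is unknown, and groups of 2 or 3 mice bound what could pass. With arrayWeights 4 members passed in KO, 1 in R206W (Cacng7), 1 in P209L (Cacng7), 8 at 3 weeks, 1 for the KO minus R206W effect, 2 for the P209L minus KO effect (Cacng7 and Gria2) and 1 for the KO effect minus the averaged knockin effect (Cacng7, -0.37). In P209L 1 member also passed with the length and GC trend removed and with median-of-ratios scaling and no KO control 1. At 3 weeks 8 passed with all 6 groups and 5 with that scaling and no KO control 1. For the averaged knockin effect 0 passed with robust eBayes (Cacng7 at 0.36, adjusted p = 0.0539) and 0 in the fit with a replicate block (Cacng7 at 0.35). Leaving out 1 mouse gave 0 to 1 member in P209L, 2 to 8 at 3 weeks and 0 to 1 for the averaged effect, with Cacng7 at 0.32 to 0.40. With arrayWeights more of all genes passed too in KO, in R206W and at 3 weeks, as given above. The same held for the KO minus R206W and P209L minus KO effects, and at 3 weeks with all 6 groups. For several other settings the share of all genes is not given, so these counts alone are not results about the members. Causes were not tested.

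Some signs turned. In KO, Cacng8 was -0.30 with arrayWeights, -0.050 with the trend removed and -0.14 with scaling and no KO control 1. Cacng5 was -0.0093 with quantile normalization, -0.13 with arrayWeights and -0.014 with the trend removed, and Cacng7 was -0.023 with median-of-ratios scaling, -0.0093 with arrayWeights and -0.088 with the trend removed. In R206W, Gria4 was 0.019 with the trend removed, Cacng2 -0.034 with arrayWeights and -0.016 with the trend removed, and Cacng4 -0.020 with the trend removed. In P209L, Gria1 was -0.0024 with quantile normalization and -0.0022 with the trend removed. At 3 weeks the trend removal turned Gria1 (0.044), Gria3 (0.13) and Gria4 (0.020). There Cacng4 was 0.092 with median-of-ratios scaling, 0.14 with quantile normalization, 0.083 with the trend removed and 0.11 with scaling and no KO control 1, Cacng5 was -0.078 with all 6 groups, and Cacng7 was 0.0054 with scaling and no KO control 1.

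Leaving out 1 mouse turned further signs. In KO the ranges were -0.31 to 0.11 for Gria1, -0.29 to 0.00060 for Gria2, -0.25 to 0.17 for Cacng2, -0.29 to 0.17 for Cacng3, -0.0011 to 0.27 for Cacng4, -0.072 to 0.29 for Cacng5, -0.0011 to 0.094 for Cacng7 and -0.20 to 0.29 for Cacng8. In R206W they were -0.0079 to 0.089 for Gria1, -0.044 to 0.036 for Gria4 and -0.052 to 0.095 for Cacng2, and in P209L -0.14 to 0.13 for Gria1 and -0.15 to 0.069 for Gria3. At 3 weeks they were -0.16 to 0.086 for Cacng4 and -0.025 to 0.10 for Cacng5. The P209L minus R206W effect of Cacng7 ran from -0.019 to 0.15.

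Whether the replicate numbers pair the mice was not settled. Deviations of same-numbered mice correlated with r from -0.11 to 0.33 over 8 pairs, 2 of them above 0.1. Of the mutants, 4 correlated best with their own number. In groups this small the deviations from a group mean depend on one another, so these values cannot exclude pairing. The replicate block, fitted for the comparisons of genotypes, changed no other call.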
